A study of Homo sapiens with 6 samples.

Results

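The homologous recombination and Fanconi genes described here are 39 genes that act in 2 linked routes of DNA repair, and they were chosen by symbol from the 17177 genes of the deposited FPKM table. All 39 symbols were found. NCI-H660 is an established wild-type cell line of neuroendocrine prostate cancer (NEPC), and its RNA was sequenced on day 3 of treatment with pyrvinium pamoate (PP), an anthelmintic drug, or with PBS as the control. There were 3 libraries for each treatment. The study used PP to inhibit the RNA-binding protein ELAVL3, and the comparison of PP with PBS asks which transcripts differ after that treatment. The dose of PP for these libraries is not given in the sources used here, and every value comes from 1 cell line.

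Homologous recombination repairs a broken chromosome by copying the sister chromatid. Nucleases first resect the broken ends, BRCA1 and its partners bring BRCA2, BRCA2 and a set of paralogs (RAD51B, RAD51C, RAD51D, XRCC2 and XRCC3) help to build a protein filament on the single strand that finds the sister sequence, and helicases and nucleases then resolve the joined molecules. The Fanconi pathway removes crosslinks between the DNA strands: a nuclear core complex attaches ubiquitin to FANCD2 and FANCI, and the crosslink is then cut out and the resulting break is repaired by recombination. Many of these genes are transcribed most in S and G2 phase, and defects in several of them are known in prostate cancer.

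The counts recovered from the FPKM steps summed to between 29064253 and 32481171 per library, so the 6 libraries had similar depth. Among neuroendocrine markers, CHGA, a granin of secretory granules, was at 43.3 ± 0.870 FPKM in the PBS libraries and 24.8 ± 1.09 FPKM in the PP libraries (SD, n = 3). The summed FPKM of 7 neuroendocrine markers was 213 to 224 with PBS and 180 to 194 with PP, and 2 of the markers were higher and 4 lower with PP. Summed FPKM was at most 1.40 for the 4 luminal prostate markers in the table, 1.92 for 5 leukocyte markers, 4.76 for 4 endothelial markers and 4.91 for 5 fibroblast markers. In bulk RNA, fewer cells of a type and less RNA per cell cannot be told apart.

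FPKM (fragments per kilobase, scaled by each library's mapped total) was compared as log2(FPKM + 1), and the added 1 makes fold changes of weakly expressed genes look smaller than they are. A gene was called higher or lower with PP where limma gave a Benjamini-Hochberg adjusted p under 0.05. The mean over the 6 libraries reached 1 FPKM, the minimum for the test, in 38 of the 39 genes. The exception was RAD51B, at 0.556 FPKM. The highest means were those of UBE2T, at 89.0 FPKM, RBBP8, at 77.5 FPKM, and TOPBP1, at 50.9 FPKM. The median over the 39 genes was 12.2 FPKM. Comparisons of FPKM between genes, here and below, rest on the length assigned to each gene.

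The 39 genes did not move as one block. Expression rose with PP in 17 of the 38 tested genes and fell in 9, and 12 did not pass the test. Among all 11726 genes tested, 38.1% were higher and 34.4% were lower with PP, against 44.7% and 23.7% of the members. The members' shares are therefore not far from those of all genes, and most of the genes tested were called in one direction or the other. The median log2 fold change of the members was 0.08, and that of all genes tested was 0.02. The individual values ran from -0.54 for RAD54L to 0.66 for EXO1. The study's methods give a P threshold of 0.05 for the RNA-seq, and, taken as unadjusted, 26 of the 38 members (68.4%) and 74.3% of all genes had a P below it. No member passed the stricter cutoff that the methods give for limma, an unadjusted P under 0.001 together with a log2 fold change beyond 1 or -1, which 5.18% of all genes passed. A smaller change, an adjusted p under 0.05 with a log2 fold change of at least 0.5, was found in 7 members (EXO1, FANCE, BRCA1, RAD50, BRCA2, RAD51C and RBBP8), and in 11.3% of all genes. In the other direction, RAD54L and FANCA were lower by at least that much, as were 12.5% of all genes. This limit depends on the pseudocount: with 0.1 in place of 1, SLX4 (log2 fold change -0.58) passed it too and was below RAD54L and FANCA (both -0.56). With 5 in place of 1, BRCA2 (0.34), RAD51C (0.43), FANCE (0.44), FANCA (-0.41) and RAD54L (-0.47) fell short of it. The 3 PP libraries were all above the 3 PBS libraries in 17 of the tested members and all below them in 11, together 73.7%, while 75.0% of all genes tested showed such a separation. Levels overlapped in the other 10.

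**Figure D1:**
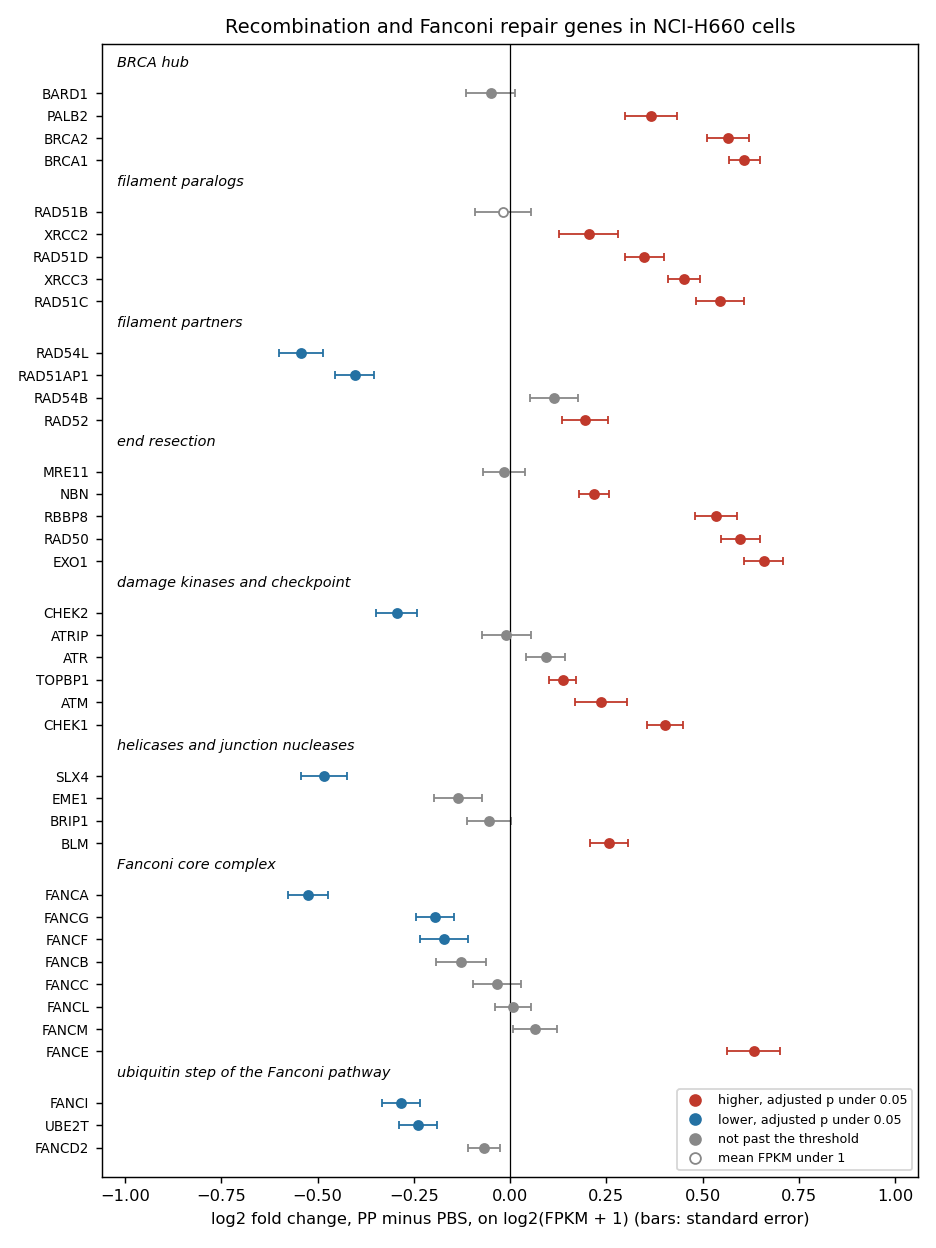
Log2 fold change (PP minus PBS, horizontal axis, on log2(FPKM + 1)) of each of the 39 genes, ordered by role, with bars for the standard error, red for genes higher and blue for genes lower at an adjusted p under 0.05, and grey for the others. Values lie between -0.54 (RAD54L) and 0.66 (EXO1). The end resection genes, the filament paralogs and the BRCA hub (BRCA1, BARD1, PALB2 and BRCA2) hold no blue point.

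End resection held EXO1, which had the highest log2 fold change with the pseudocount of 1. With a pseudocount of 0.1 it was at 0.69 and the Fanconi core gene FANCE at 0.70. EXO1, an exonuclease that extends resection, was at 13.2, 12.5 and 13.2 FPKM in the PBS libraries and at 20.2, 20.5 and 22.5 FPKM in the PP libraries. Every PP library was above every PBS library, and the log2 fold change was 0.66 (SE 0.051, adjusted p = 1.23e-06). RAD50, the structural subunit of the MRN complex that binds broken ends, was at 22.4, 21.0 and 19.6 FPKM with PBS and at 31.5, 32.6 and 32.7 FPKM with PP. The groups did not overlap, and RAD50 rose by 0.60 on the log2 scale (SE 0.050, adjusted p = 2.29e-06). RBBP8, which encodes CtIP, the cofactor that starts resection with MRN, was at 68.0, 59.9 and 61.6 FPKM with PBS and at 87.4, 90.6 and 97.6 FPKM with PP. It was the most abundant resection gene in both groups, and its log2 fold change was 0.53 (SE 0.055, adjusted p = 9.66e-06). NBN, the MRN subunit that recruits ATM, rose from 32.7 ± 1.03 to 38.2 ± 0.920 FPKM (SD, n = 3). MRE11, the nuclease of the same complex, was at 12.3 ± 0.181 FPKM with PBS and 12.1 ± 0.866 FPKM with PP, and it did not pass the test (log2 fold change -0.02, adjusted p = 0.791). Thus 4 of the 5 resection genes were higher with PP and none of them was called lower. Of all genes tested, 38.1% were higher and 34.4% lower.

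The hub that carries BRCA2 to the break showed higher levels in 3 of its 4 genes, against 38.1% of all genes tested. BRCA1, a ubiquitin ligase subunit and scaffold of recombination, was at 16.2, 15.9 and 16.2 FPKM with PBS and at 24.9, 24.6 and 25.7 FPKM with PP. All PP libraries lay well above the PBS libraries, and the log2 fold change was 0.61 (SE 0.039, adjusted p = 3.22e-07), the lowest adjusted p among the members. BRCA2, the mediator that starts the filament, was at 4.08, 3.95 and 4.10 FPKM with PBS and at 6.24, 6.33 and 6.84 FPKM with PP. Its levels did not overlap between the groups, and the log2 fold change was 0.57 (SE 0.055, adjusted p = 7.02e-06). PALB2, the bridge between BRCA1 and BRCA2, rose from 9.28 ± 0.710 to 12.3 ± 0.970 FPKM (SD, n = 3). BARD1, the obligate partner of BRCA1 in the ligase, was at 15.7 ± 0.475 FPKM with PBS and 15.1 ± 1.47 FPKM with PP, with overlapping libraries (log2 fold change -0.05, adjusted p = 0.488). Without PP replicate 3, BARD1 was called lower (log2 fold change -0.12, adjusted p = 0.0432, limma).

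The filament paralogs build 2 assemblies that stabilise the filament, and all 4 of those tested were called higher with PP. The share called higher over all genes tested was 38.1%. XRCC3, which pairs with RAD51C, was the most abundant paralog, at 27.6, 29.9 and 27.6 FPKM with PBS and at 40.0, 38.6 and 38.9 FPKM with PP. The PP libraries were all higher, with a log2 fold change of 0.45 (SE 0.043, adjusted p = 5.22e-06). RAD51C, which is part of both assemblies, was at 13.2, 10.9 and 11.6 FPKM with PBS and at 17.5, 17.8 and 18.0 FPKM with PP. Again no PBS library reached a PP library, and the log2 fold change was 0.55 (SE 0.062, adjusted p = 2.14e-05). RAD51D, a member of the larger assembly, rose from 4.004 ± 0.0545 to 5.37 ± 0.0576 FPKM. XRCC2, its partner, was at 4.37, 4.55 and 5.43 FPKM with PBS and at 5.51, 5.36 and 6.08 FPKM with PP, so that PBS replicate 3 was above PP replicate 2. The call of XRCC2 as higher (log2 fold change 0.20, adjusted p = 0.0338) was lost without PBS replicate 1, PBS replicate 2, PP replicate 1 or PP replicate 3, with adjusted p values of 0.119, 0.101, 0.0501 and 0.118. RAD51B, the paralog under the minimum of 1 FPKM, was at 0.651, 0.427 and 0.625 FPKM with PBS and at 0.555, 0.553 and 0.523 FPKM with PP. These levels rest on 116 to 187 recovered counts per PBS library and 155 to 159 per PP library, the groups overlapped, and in a fit of genes with a mean of at least 0.1 FPKM the adjusted p was 0.831.

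**Figure D2:**
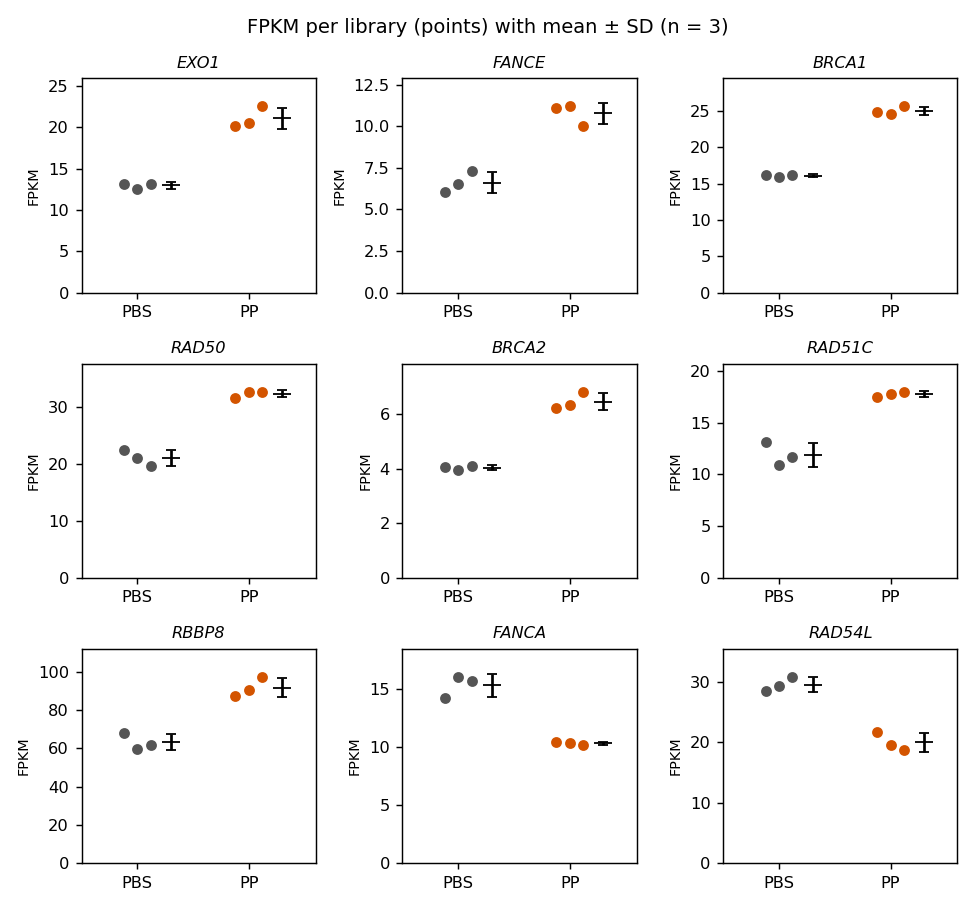
FPKM (vertical axes, from 0) in each of the 3 PBS and 3 PP libraries for the 9 members with an adjusted p under 0.05 and a log2 fold change of at least 0.5 in either direction, with the mean ± SD beside the points. The PP points lie above the PBS points for EXO1, FANCE, BRCA1, RAD50, BRCA2, RAD51C and RBBP8 and below them for FANCA and RAD54L.

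Proteins that work with the filament differed among themselves. RAD54L, the motor protein that drives strand invasion, had the lowest log2 fold change of the members with the pseudocount of 1. It was at 28.4, 29.2 and 30.8 FPKM with PBS and at 21.7, 19.5 and 18.7 FPKM with PP. Each PP library was below each PBS library, and RAD54L fell by 0.54 on the log2 scale (SE 0.057, adjusted p = 1.19e-05). RAD51AP1, which stimulates strand pairing, fell from 14.4 ± 0.332 to 10.6 ± 0.621 FPKM (SD, n = 3; adjusted p = 4.56e-05). RAD52, an annealing protein, was at 6.34 ± 0.493 FPKM with PBS and 7.39 ± 0.213 FPKM with PP and was called higher (adjusted p = 0.0147), a call that was lost without PBS replicate 1 (adjusted p = 0.0560). RAD54B, a relative of RAD54L, was at 5.15 ± 0.383 FPKM with PBS and 5.66 ± 0.244 FPKM with PP and did not pass the test (adjusted p = 0.123).

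The kinases that signal damage and their checkpoint partners moved in both directions. TOPBP1, the activator of ATR and the most abundant gene of this group, was at 49.1, 48.2 and 48.2 FPKM with PBS and at 53.5, 52.0 and 54.7 FPKM with PP. The rise was small but larger than the spread between libraries (log2 fold change 0.14, SE 0.035, adjusted p = 0.00493). CHEK1, the checkpoint kinase downstream of ATR, rose from 13.8 ± 0.520 to 18.6 ± 0.728 FPKM, whereas CHEK2, the checkpoint kinase downstream of ATM, fell from 8.99 ± 0.363 to 7.14 ± 0.334 FPKM (SD, n = 3). Their log2 fold changes were 0.40 (adjusted p = 2.72e-05) and -0.29 (adjusted p = 6.09e-04). ATM, the kinase that responds to double-strand breaks, rose from 6.84 ± 0.538 to 8.22 ± 0.547 FPKM. ATR, the kinase that responds to single-stranded DNA, was at 8.68 ± 0.0629 FPKM with PBS and 9.33 ± 0.441 FPKM with PP; its PP libraries were all above the PBS libraries, but the adjusted p was 0.119. ATRIP, the partner that brings ATR to DNA, was at 6.79 ± 0.318 FPKM and 6.75 ± 0.582 FPKM, with overlapping libraries.

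Of the helicases and junction nucleases, 1 was higher and 1 was lower with PP. BLM, the helicase that dissolves double Holliday junctions, was at 10.8, 10.9 and 11.4 FPKM with PBS and at 13.6, 12.6 and 13.9 FPKM with PP. It rose by 0.26 on the log2 scale, and the groups did not overlap (SE 0.050, adjusted p = 0.00102). SLX4, the scaffold that holds the junction nucleases, fell from 5.47 ± 0.133 to 3.63 ± 0.256 FPKM (log2 fold change -0.48, adjusted p = 4.02e-05). EME1, a subunit of the MUS81 nuclease, was at 12.04 ± 0.655 FPKM with PBS and 10.9 ± 0.886 FPKM with PP (log2 fold change -0.14, adjusted p = 0.0775). Without PP replicate 3, EME1 was called lower (log2 fold change -0.18, adjusted p = 0.0325, limma). BRIP1, the helicase partner of BRCA1, was at 3.74 ± 0.155 and 3.56 ± 0.0865 FPKM, and its groups overlapped.

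In the Fanconi core complex, 3 of 8 genes were lower, 1 was higher and 4 did not pass. Of all genes tested, 34.4% were lower and 38.1% higher. FANCA, a large subunit that pairs with FANCG, was at 14.2, 16.1 and 15.7 FPKM with PBS and at 10.5, 10.3 and 10.2 FPKM with PP. The PP libraries were close to each other and all below the PBS libraries, and the log2 fold change was -0.52 (SE 0.052, adjusted p = 7.80e-06). FANCG, the most abundant core gene, was at 29.3, 29.8 and 29.4 FPKM with PBS and at 27.6, 24.1 and 25.3 FPKM with PP. It was lower in every PP library, by a smaller amount (log2 fold change -0.20, SE 0.050, adjusted p = 0.00485). FANCF, an adaptor within the complex, was at 11.02 ± 0.635 FPKM with PBS and 9.67 ± 0.745 FPKM with PP and was called lower (adjusted p = 0.0296). That call was lost without PBS replicate 3, PP replicate 2 or PP replicate 3, with adjusted p values of 0.116, 0.116 and 0.0740.

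FANCE, which links the core complex to FANCD2, moved the other way. It was at 6.04, 6.50 and 7.28 FPKM with PBS and at 11.1, 11.2 and 10.04 FPKM with PP. Every PP library exceeded every PBS library, and the log2 fold change was 0.63 (SE 0.069, adjusted p = 1.51e-05). FANCL, the ubiquitin ligase subunit, was at 22.8 ± 0.663 FPKM with PBS and 22.9 ± 1.14 FPKM with PP. FANCB, FANCC and FANCM, a partner of FANCL, a subunit that binds FANCE and FANCF, and a translocase that anchors the complex on DNA, had log2 fold changes of -0.13, -0.03 and 0.06, and none passed the test. The 3 PP libraries of FANCB were nevertheless all below its PBS libraries, at 1.43 to 1.46 against 1.59 to 1.75 FPKM.

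The ubiquitin step itself comprised FANCD2, FANCI and UBE2T, and their PP libraries were all below their PBS libraries. In 75.0% of all genes tested, the PP libraries were likewise all above or all below the PBS libraries. UBE2T, the conjugating enzyme that works with FANCL, was the most abundant of the 39 genes. It was at 103, 90.1 and 96.0 FPKM with PBS and at 78.3, 83.6 and 82.5 FPKM with PP, which is a fall of 0.24 on the log2 scale (SE 0.050, adjusted p = 0.00152). FANCI fell from 41.3 ± 1.22 to 33.8 ± 2.20 FPKM (SD, n = 3; adjusted p = 4.49e-04). FANCD2, its partner in the clamp that receives ubiquitin, was at 18.9 ± 0.664 FPKM with PBS and 18.0 ± 0.119 FPKM with PP and did not pass (log2 fold change -0.07, adjusted p = 0.161). Called genes in this step were lower (2 of 3). Those of the filament paralogs, end resection and the BRCA hub were higher (4 of 4, 4 of 5 and 3 of 4). Over all genes tested, 38.1% were higher and 34.4% lower with PP. The paralogs include XRCC2, whose call was lost in several fits with a library left out. Each group holds few genes, and the difference between these groups of genes was not tested.

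Because partners of 1 complex moved unequally, the ratio of FPKM was taken within each library for 7 pairs. The pairs were chosen after the values of the members were seen, so the ratios are a description. BRCA1 to BARD1 was 1.03, 1.05 and 1.01 with PBS and 1.73, 1.74 and 1.53 with PP. RAD50 to MRE11 was 1.80, 1.71 and 1.62 with PBS and 2.82, 2.66 and 2.53 with PP. Near-equal BRCA1 and BARD1 values with PBS thus gave way to an excess of BRCA1 with PP in all 3 libraries, and the excess of RAD50 over MRE11 was larger in all 3. NBN to MRE11 went from 2.67 ± 0.0717 to 3.16 ± 0.189, BRCA2 to PALB2 from 0.438 ± 0.0419 to 0.529 ± 0.0148, and FANCD2 to FANCI from 0.458 ± 0.00810 to 0.534 ± 0.0339 (SD, n = 3), each without overlap between the groups. RAD51C to XRCC3 and ATR to ATRIP overlapped between the groups.

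**Figure D3:**
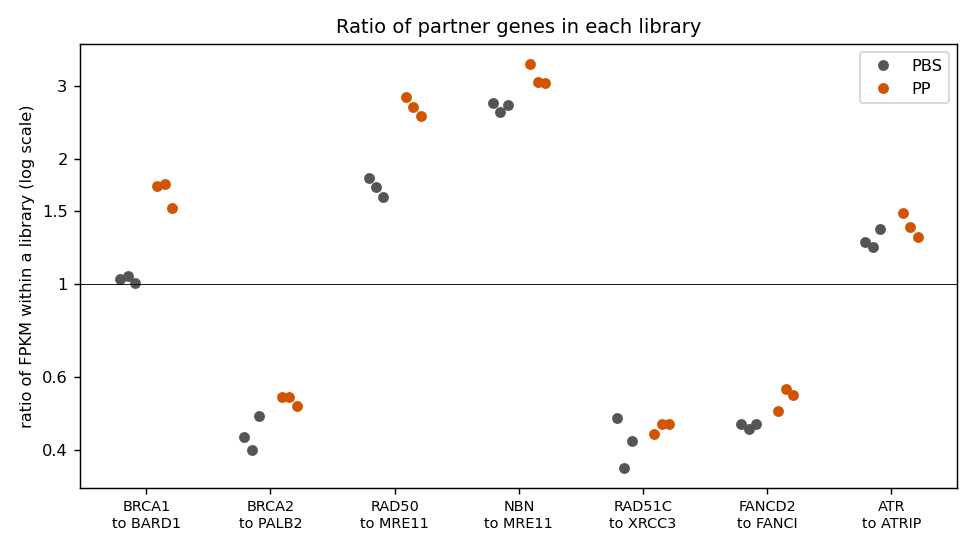
Ratio of FPKM of 7 pairs of partner genes within each library (vertical axis, log scale), with PBS libraries in grey and PP libraries in orange. The PP points of BRCA1 to BARD1 lie at 1.53 to 1.74 and its PBS points at 1.01 to 1.05, while those of RAD51C to XRCC3 and of ATR to ATRIP overlap.

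The promoters of the 4 called members with the lowest log2 fold changes and of the 2 with the highest are shown so that the start regions of genes that moved in opposite directions can be read side by side. Sequences are from RefSeq on GRCh38.p14, run 5′ to 3′ on the strand of the gene, and cover the 250 bases before the first listed start of each gene. Capitals mark a CCAAT box (CCAAT, or ATTGG on the other strand) or an E2F site (TTTGCCGC, here as GCGGCAAA on the other strand).
RAD54L, chr1:46247438-46247687, plus strand: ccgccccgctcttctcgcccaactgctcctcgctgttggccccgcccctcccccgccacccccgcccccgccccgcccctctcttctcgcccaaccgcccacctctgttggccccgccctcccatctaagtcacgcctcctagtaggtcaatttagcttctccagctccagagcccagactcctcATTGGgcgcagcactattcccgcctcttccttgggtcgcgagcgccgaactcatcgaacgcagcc
FANCA, chr16:89816648-89816897, minus strand: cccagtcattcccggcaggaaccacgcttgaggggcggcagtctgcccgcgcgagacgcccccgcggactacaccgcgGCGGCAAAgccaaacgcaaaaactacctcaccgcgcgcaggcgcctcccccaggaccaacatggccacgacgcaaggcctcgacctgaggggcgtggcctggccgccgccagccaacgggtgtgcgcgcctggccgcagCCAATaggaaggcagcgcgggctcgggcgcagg
SLX4, chr16:3611607-3611856, minus strand: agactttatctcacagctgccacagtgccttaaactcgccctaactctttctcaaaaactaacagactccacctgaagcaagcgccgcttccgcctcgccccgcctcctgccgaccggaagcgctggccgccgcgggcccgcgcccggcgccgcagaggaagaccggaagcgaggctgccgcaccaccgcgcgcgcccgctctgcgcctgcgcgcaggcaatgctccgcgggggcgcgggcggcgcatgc
RAD51AP1, chr12:4538640-4538889, plus strand: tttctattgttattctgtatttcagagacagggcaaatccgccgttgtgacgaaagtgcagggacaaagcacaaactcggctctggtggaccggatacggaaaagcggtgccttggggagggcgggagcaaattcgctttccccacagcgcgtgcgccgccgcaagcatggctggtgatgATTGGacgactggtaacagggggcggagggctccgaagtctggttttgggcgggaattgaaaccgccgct
FANCE, chr6:35452088-35452337, plus strand: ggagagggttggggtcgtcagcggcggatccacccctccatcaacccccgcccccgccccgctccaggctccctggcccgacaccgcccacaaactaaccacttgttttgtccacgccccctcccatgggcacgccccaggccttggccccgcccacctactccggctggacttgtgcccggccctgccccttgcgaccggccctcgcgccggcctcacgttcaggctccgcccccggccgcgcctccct
EXO1, chr1:241847954-241848203, plus strand: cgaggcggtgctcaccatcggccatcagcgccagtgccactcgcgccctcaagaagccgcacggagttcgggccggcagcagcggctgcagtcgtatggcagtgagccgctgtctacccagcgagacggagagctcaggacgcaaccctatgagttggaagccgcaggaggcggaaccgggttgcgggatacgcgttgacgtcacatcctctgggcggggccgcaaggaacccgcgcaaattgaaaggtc

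RAD54L, FANCA and RAD51AP1, which were lower with PP, carried a CCAAT box that began 65, 33 and 70 bases before the start. FANCA also held an E2F site 172 bases before the start. No capital letters stand in the windows of SLX4, FANCE and EXO1. Promoters of 36 of the 39 genes were matched by symbol, and the motifs were counted on both strands from 250 bases before to 50 bases after the start. A CCAAT box stood in 6 of 8 promoters of genes called lower (RAD54L, FANCA, RAD51AP1, CHEK2, FANCF and UBE2T), in 5 of 16 of genes called higher and in 4 of 12 of the others, against 35.7% of all 27305 promoters and 37.2% of those of genes tested. An E2F site, in the spellings TTTCCCGC, TTTCGCGC, TTTGCCGC or TTTGGCGC, stood in 6 of the 36 promoters (XRCC2, EXO1, TOPBP1, FANCA, FANCC and FANCD2) and in 3.33% of all promoters and 5.60% of those of genes tested. The element CHR (TTTGAA or TTCGAA) stood in 4 of the members' promoters (11.1%), in 16.6% of all promoters and in 10.6% of those of genes tested. The E-box CACGTG stood in 3 of the members' promoters (8.33%), in 7.43% of all and in 10.4% of those of genes tested. The ATF4-C/EBP site TGATGNAA stood in 0 of the members' promoters, in 3.67% of all and in 1.56% of those of genes tested. None of the motifs overlap in the sequences shown. These letters are a description of the windows, and whether the motifs bear on the expression values was not tested.

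Other genes of the same repair routes were read from a list of 54, of which 52 were tested. With PP, 21 of them were higher and 12 lower, with a median log2 fold change of -0.01. Of all genes tested, 38.1% were higher and 34.4% lower. SEM1, a small protein that binds BRCA2 and is also a proteasome subunit, fell from 88.2 ± 1.48 to 45.3 ± 0.613 FPKM (log2 fold change -0.95, adjusted p = 3.77e-09). CENPX, a small histone-fold partner of FANCM, fell from 36.4 ± 2.37 to 22.4 ± 1.85 FPKM, and SFR1, an accessory factor of recombination, rose from 3.67 ± 0.493 to 7.44 ± 0.463 FPKM (SD, n = 3).

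Other repair routes were read in the same way, beside the same shares of all genes tested (38.1% higher and 34.4% lower). The genes named for each route are among the called ones with the largest log2 fold changes in either direction. Of 22 damage signalling and pathway choice genes, 9 were higher and 5 lower with PP, with log2 fold changes of -0.57 for the fork protector TIMELESS and 0.55 for the shieldin subunit SHLD1. Of 12 end joining genes, 2 were higher and 6 lower, and log2 fold changes were 0.47 for the ligase LIG4, -0.35 for its partner XRCC4 and -0.32 for PAXX, which binds the end-joining protein Ku. Of 7 mismatch repair genes, 5 were higher and 1 lower, with log2 fold changes of 0.97 for PMS1 and 0.38 for PMS2, both of the MutL family. Base excision repair had 4 of 18 genes higher and 7 lower, with log2 fold changes of -1.17 for the glycosylase MPG, -0.85 for the glycosylase NTHL1 and -0.47 for PARP1, which binds strand breaks. Nucleotide excision repair had 9 of 17 higher and 3 lower, with log2 fold changes of -0.85 for CETN2, 0.79 for its partner, the damage sensor XPC, and -0.74 for UVSSA, which acts at stalled RNA polymerase.

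**Figure D4:**
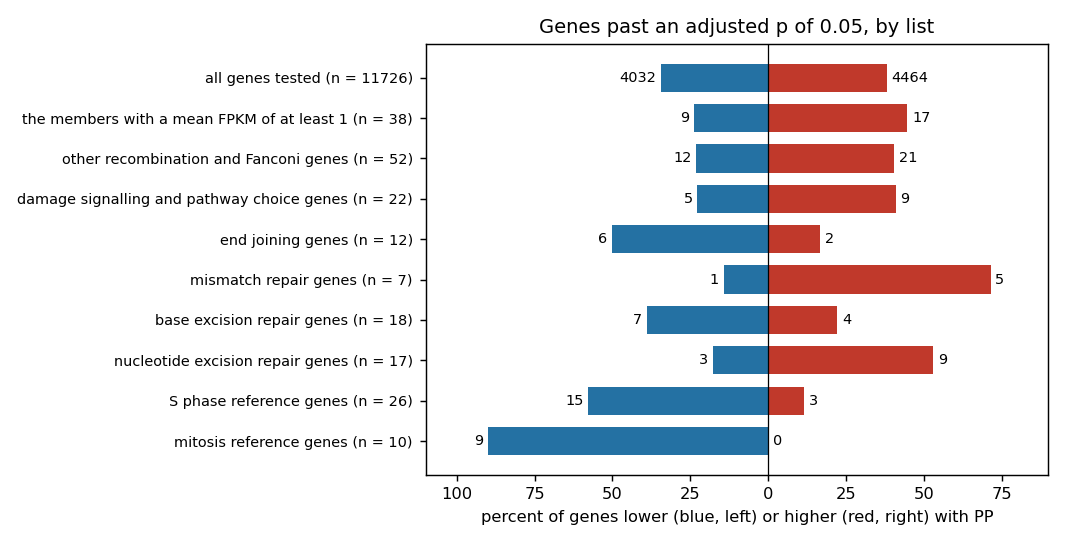
Share of genes (horizontal axis, percent) called lower (blue, to the left) and higher (red, to the right) with PP at an adjusted p under 0.05, for all 11726 genes tested, the members, and 8 other lists, with the number of genes at the end of each bar. The members have 17 genes on the right and 9 on the left, and the mitosis genes have 0 and 9.

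Cell cycle genes moved with the treatment too. Of 26 S phase reference genes, 3 were higher and 15 lower with PP, with a median log2 fold change of -0.20, and their summed FPKM was 1699 to 1731 with PBS and 1467 to 1518 with PP. The cyclin gene CCNE1 and RRM2, a subunit of ribonucleotide reductase, fell by 1.17 and 0.81 on the log2 scale, and CDC6, which licenses origins, rose by 0.75. Of 10 mitosis reference genes, 0 were higher and 9 lower, with a median of -0.44 and sums of 671 to 699 FPKM with PBS and 505 to 521 FPKM with PP, and MKI67, a marker of cycling cells, had a log2 fold change of -0.61. Among all genes tested, 38.1% were higher and 34.4% lower with PP. Of the members, RAD54L, FANCA, SLX4, RAD51AP1, CHEK2, FANCI, UBE2T, FANCG and FANCF were lower, and 17 were higher. What part the cell cycle genes and the neuroendocrine markers have in the members' values was not tested. Across the 38 tested members, gene length and log2 fold change had a Spearman rho of 0.14, and across all 11726 genes it was 0.06; genes of the same libraries are not independent replicates.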

How the data were processed

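RNA-seq covered 3 PP and 3 PBS libraries of NCI-H660 cells. The authors deposited FPKM for 17177 gene symbols. The labels' processing notes name fastp, HISAT2, HTSeq and GRCh38, while the paper's methods name hg19, Bowtie and RSEM, with Cufflinks for FPKM and HTSeq-count for read counts. The legend gives 3 independent samples and the methods 2 per group, so p-values measure the spread between these libraries. Whole counts were recovered from the FPKM steps for all 17177 genes (tolerance 0.01 of a count), and a factor common to all counts of a gene would lower them. FPKM was tested with limma 3.58.1 in R 4.3.3 on log2(FPKM + 1), with an intensity trend, where the mean FPKM was 1 or more, with Benjamini-Hochberg adjustment over all 11726 such genes. An exact permutation test of 3 against 3 libraries cannot go below p = 0.1. The members, roles and lists were chosen with earlier results of these data known. All members are named. Full values are given for called members with a log2 fold change of at least 0.5 in either direction and for the most abundant member of each role, and at most 3 called genes are named per other list. Alternatives covered pseudocount, filter, scaling, trend, limma-voom on recovered counts, a replicate block and each library left out. The results for some genes are not reported here, and 1 of these was left out of the list of neuroendocrine markers. The steps were tested on simulated data.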

Additional observations from a re-analysis of the deposited data

How the results depend on the processing

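The counts of members higher and lower with PP and the median were recomputed under 15 alternatives. Members called higher numbered 15 to 17 and members called lower 8 to 10, their median log2 fold change was 0.050 to 0.126, and none passed the limma cutoff of the methods under any of them. With the replicate block, 17 members were higher and 9 lower, and the block took the calls over all genes to 4260 higher and 3878 lower. The deviations of same-numbered libraries correlated at -0.21, -0.01 and -0.13, so no shared replicate effect was seen. Whether same-numbered libraries were prepared together is not given in the sources used here. Of 26 called members, 23 kept the call under every alternative in which they were tested (RAD51D and SLX4 were not tested at a mean FPKM of at least 5); without a filter, XRCC2 (adjusted p = 0.0858) and FANCF (0.0656) were not called. EME1 was called lower under median-ratio scaling (log2 fold change -0.16, adjusted p = 0.0478) and FANCB without the trend (-0.13, adjusted p = 0.0240). Uncalled members changed sign in some settings: FANCL was at -0.014 under median-ratio scaling, which moved the median of all genes from 0.02 to 0.0014. With 1 library left out at a time, log2 fold changes ran from -0.085 to 0.020 for RAD51B, -0.060 to 0.035 for MRE11, -0.071 to 0.021 for ATRIP, -0.091 to 0.0028 for FANCC and -0.017 to 0.048 for FANCL. A mean FPKM of at least 5 left 32 members tested.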
